A study of Mus musculus with 9 samples.

Results

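The Nodal and activin pathway was followed through 9 genes of the 38293 in the RNA-seq count table: the ligands Nodal and Gdf3, the co-receptor Tdgf1, the receptor Acvr2b, the secreted inhibitors Lefty1 and Lefty2, the signal transducer Smad2, the co-repressor Skil and the inhibitory Smad7. They were taken by name. The cells were E14, a mouse embryonic stem cell line of strain 129/Ola, with 3 biological replicates in each of 3 culture states. Naive cells (mESC-2i) were kept in N2B27 medium with the MEK inhibitor PD0325901 at 1 µM, the GSK3 inhibitor CHIR99021 at 3 µM and mLIF at 10 ng/mL. The cells called primed in the study (mESC-ser) grew on gelatin in medium with 15% foetal bovine serum and mLIF at 10 ng/mL, without the 2 inhibitors. Epiblast-like cells (EpiLC) were derived from the naive cells on fibronectin in N2B27 with activin A at 20 ng/mL, bFGF at 12 ng/mL and KSR at 1%, so EpiLC is the state in which a ligand of this pathway was listed in the medium. All 3 states share a single cell line, and the duration of the EpiLC step is not given in the sources used here.

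Nodal and the activins are secreted ligands of the TGF-beta family. They bring together type I and type II serine/threonine kinase receptors, which phosphorylate Smad2 and Smad3, and these enter the nucleus with Smad4 and act with DNA-binding partners such as Foxh1. Nodal needs the membrane-bound co-receptor Tdgf1 (Cripto) whereas activin does not, and the pathway feeds back on itself because Nodal, Lefty1, Lefty2, Smad7 and Skil are all known targets of it. In the mouse epiblast it is known for holding cells pluripotent before gastrulation and for inducing mesendoderm during it.

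Lefty1 and Lefty2 are near copies of each other on chromosome 1, and the clearest results below rest on telling them apart with reads of 50 bases. Their coding sequences, both 1104 bases without the stop codon, were identical at 91.85% of positions (GENCODE M21 transcripts, mm10, plus strand). The longest stretch without a difference ran over 140 bases, so a read that falls inside it cannot be assigned to either gene. Of all windows of 50 bases in the annotated transcripts, 17.9% of those in Lefty1 also occur in Lefty2, and 12% of those in Lefty2 occur in another gene. Most such windows of either gene thus occur in no other gene, but where reads fall along the transcripts was not measured. How the study counted reads with several alignments was not stated, and the share of such reads was not tested.

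Libraries held 7187576 to 16829549 counts. The states could be told from their markers: the summed level of 8 naive pluripotency genes was 3393 to 3432 CPM in mESC-2i, 1806 to 1887 in mESC-ser and 104 to 118 in EpiLC, and that of 6 formative epiblast genes was 88.0 to 97.4, 788 to 921 and 2209 to 2300 CPM. CPM are counts relative to library size, scaled by TMM over the 9 libraries. Within the naive list, mean Zfp42 rose from 293 CPM in mESC-2i to 353 in mESC-ser, the reverse of the sum. The 4 shared pluripotency genes summed to 1464 to 1859, 2283 to 2388 and 1673 to 1757 CPM, and did not move together. In the same order of states, mean CPM was 873, 790 and 1007 for Pou5f1 and 468, 509 and 61.8 for Sox2. It was 187, 501 and 192 for Sall4 and 134, 520 and 457 for Lin28a. Markers of other cell types moved between the states as well. The summed level of 8 primitive endoderm genes was 20.4 to 24.4 CPM in mESC-2i, 51.8 to 53.2 in mESC-ser and 8.29 to 11.1 in EpiLC. Sox7 and Pdgfra were at 3 counts or fewer in every EpiLC library. From mESC-2i to mESC-ser the mean of Cubn rose most (0.269 to 17.1 CPM), that of Gata4 fell (4.61 to 3.39) and the others rose. The 8 trophectoderm genes summed to 152 to 173, 255 to 278 and 74.1 to 78.3 CPM, with Elf5 at 3 counts or fewer throughout. From mESC-2i to mESC-ser mean CPM rose for Krt8 (34.3 to 106), Krt18 (11.1 to 95.9), Gata3 (1.31 to 5.28) and Hand1 (0.0669 to 4.53). It fell for Cdx2 (15.5 to 2.44), Tfap2c (65.5 to 34.9) and Tead4 (32.5 to 18.1). In EpiLC, Krt18 held 57.8 CPM of the sum. The 8 fibroblast genes summed to 44.3 to 51.1, 59.7 to 78.1 and 41.2 to 45.5 CPM, but its members went opposite ways between mESC-2i and EpiLC, with mean levels from 22.5 to 1.47 CPM for Col1a1, 12.0 to 0.181 for Col3a1, 3.05 to 29.5 for Thy1 and 0.470 to 8.51 for Dcn, and Lum was at 3 counts or fewer in all libraries. The 8 primitive streak genes, some of which also stand on the pathway list below, summed to 105 to 124, 14.4 to 18.1 and 14.2 to 16.4 CPM. Most of the naive sum was T, whose mean was 85.5 CPM there, 4.38 with serum and 1.35 for EpiLC. Eomes, Gsc and Foxa2 also had their highest means in naive cells (15.6, 9.34 and 1.90 CPM). Mixl1 was highest in EpiLC (1.91 CPM, against 0.918 in naive cells) and Evx1 in serum (1.25 against 0.787). Mesp1 and Cer1 were at 3 counts or fewer throughout. The part of such cells in the values below was not tested, and in bulk RNA fewer cells of a type and less RNA per cell cannot be told apart.

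Each pair of states was compared with the quasi-likelihood test of edgeR over all genes. Calls needed an absolute log2 fold change over 0.5 and a p under 0.05 after Benjamini-Hochberg adjustment over all tested genes, and the adjusted p-values of single genes below come from this test. Most of the transcriptome passed. For mESC-ser against mESC-2i 56.2% of 15728 tested genes were called (25.9% higher, 30.3% lower). For EpiLC it was 69.8% of 15378 genes against mESC-2i (32.0% higher, 37.8% lower) and 73.3% of 15345 against mESC-ser (35.5% higher, 37.8% lower). Of the 9 genes, 3 were called higher and 2 lower in the first comparison, 2 and 2 in the second, and 3 and 4 in the third. With so many genes called, these numbers say little about the 9 genes as a set. Their median log2 fold changes were -0.34, 0.01 and 0.05, beside -0.04, -0.11 and -0.07 for all tested genes. Scaling by total counts moved the median of all genes in the EpiLC comparisons to -0.45 and -0.41, and the percentage of calls that were higher to 33.7% and 37.4%, from 45.9% and 48.4% with TMM, so changes in EpiLC are relative to the TMM scale.

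Fold changes also followed gene length. Their Spearman correlation with exonic length, over protein-coding genes, was 0.28 for mESC-ser against mESC-2i, and for EpiLC it was -0.30 against mESC-2i and -0.50 against mESC-ser. With 1758 exonic bases, Lefty1 belonged to the shortest eighth of these genes, and Skil to the longest with 9694. A second fit with offsets for length and GC content in each library is therefore given beside the calls, and the source of the dependence on length was not tested.

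The pattern over the states differed from gene to gene. Lefty1 stood out in EpiLC, Lefty2 was lowest in serum, Acvr2b was highest in serum, Skil was lowest in naive cells, Smad7 was lowest in EpiLC, and Tdgf1 did not differ beyond the spread in any comparison.

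**Figure D1:**
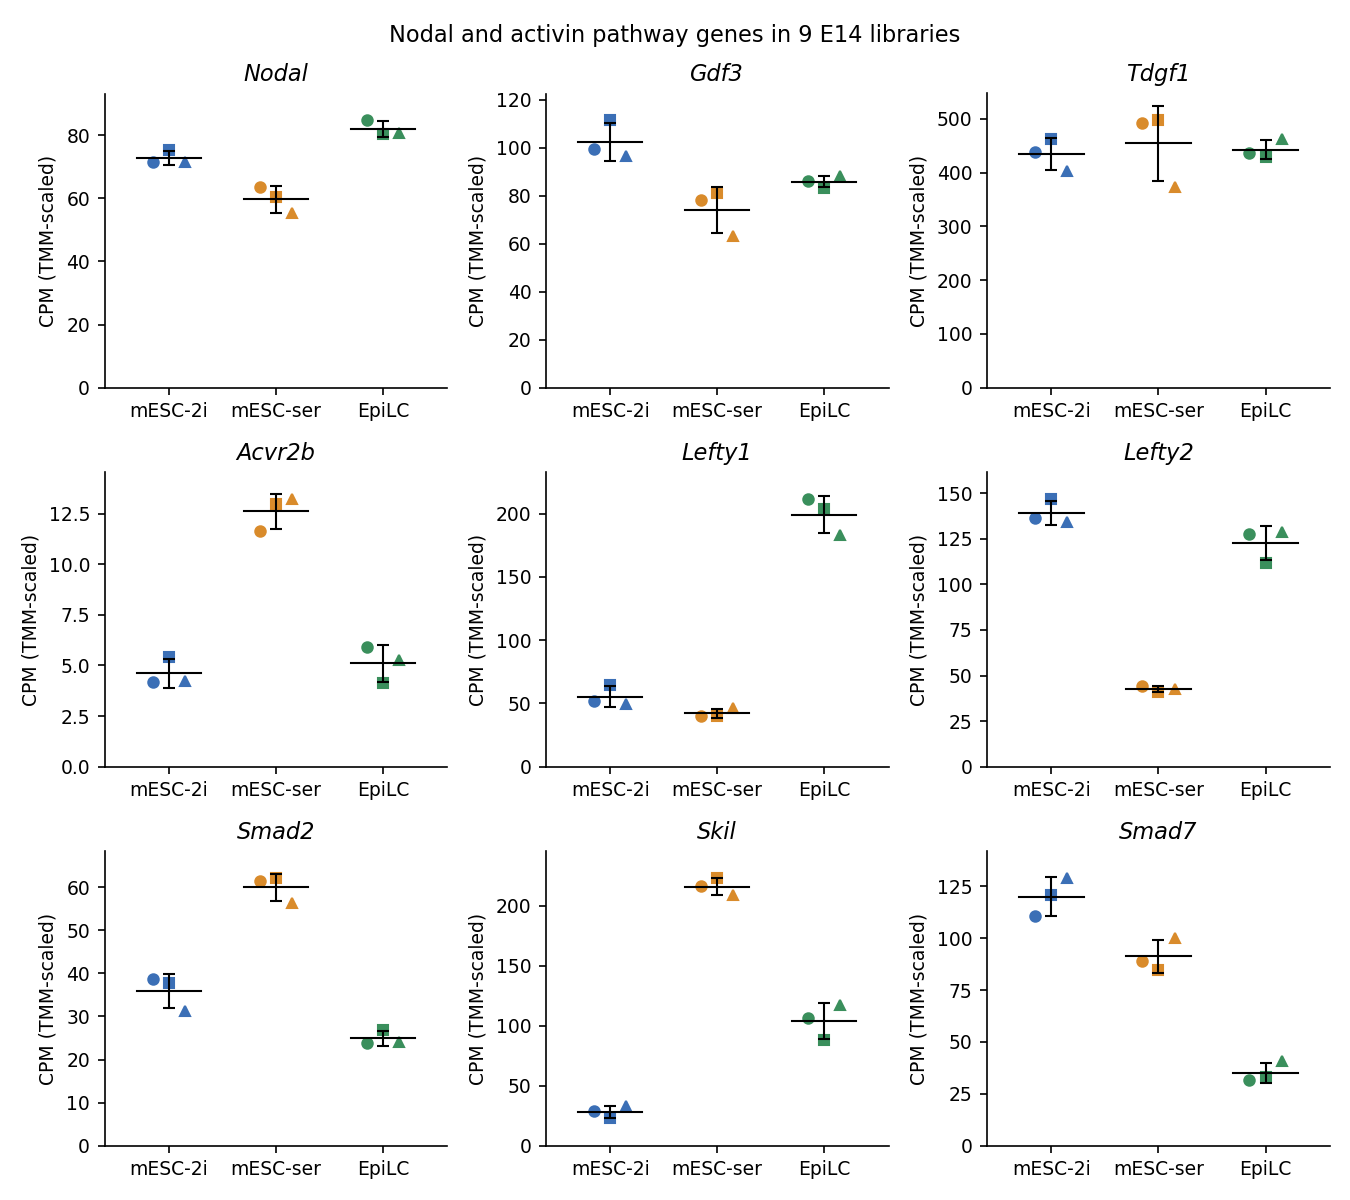
Level of each of the 9 genes in CPM (counts relative to library size, TMM-scaled, linear axis from 0) in the 3 culture states. Circles, squares and triangles are replicates 1, 2 and 3, and the black line and bar are the mean and SD (n = 3). Lefty1 lies at 183 to 211 CPM in EpiLC and at 40.0 to 64.7 in the 6 other libraries, and Skil lies at 209 to 223 CPM in mESC-ser.

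Nodal, the ligand that gives the pathway its name (ENSMUSG00000037171, mm10 chromosome 10, 61417972 to 61425338, plus strand), varied little. It was measured at 71.5, 75.1 and 71.5 CPM in replicates 1, 2 and 3 of mESC-2i, at 63.6, 60.3 and 55.2 CPM in mESC-ser and at 84.7, 80.4 and 80.7 CPM in EpiLC. The 3 groups did not overlap, with mESC-ser lowest and EpiLC highest. The log2 fold change was -0.34 (SE 0.10, edgeR adjusted p = 0.0111) in mESC-ser against mESC-2i and 0.15 (SE 0.08, edgeR adjusted p = 0.113) in EpiLC against mESC-2i, and neither was called. The latter was negative with total-count scaling (-0.19) and with the length and GC offsets (-0.15). EpiLC against mESC-ser was called at 0.54 (SE 0.08, edgeR adjusted p = 1.49e-05), but genes in the same length eighth had a median of 0.56, and with the offsets Nodal was at -0.06 (SE 0.07, edgeR adjusted p = 0.455). The call was also lost with total-count scaling (0.20) and without mESC-ser replicate 3 (0.49).

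Gdf3, a ligand related to Nodal (ENSMUSG00000030117, chromosome 6, 122605403 to 122610087, minus strand), was highest in mESC-2i, at 99.6, 111 and 96.6 CPM. It was at 78.3, 81.0 and 63.3 CPM in mESC-ser and at 86.2, 83.3 and 88.1 CPM in EpiLC, so the 3 groups did not overlap. The call as lower in mESC-ser than in mESC-2i lay at the threshold, at -0.53 on the log2 scale (SE 0.12, edgeR adjusted p = 0.00274). It was lost with the offsets (-0.26), without mESC-2i replicate 2 (-0.48) and without mESC-ser replicate 3 (-0.41), the lowest of its group. EpiLC was not called against mESC-2i (-0.28, SE 0.09) or against mESC-ser (0.30, SE 0.10), where total-count scaling gave -0.04.

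The co-receptor Tdgf1 (ENSMUSG00000032494, chromosome 9, 110939603 to 110946158, minus strand) was the most abundant of the 9 genes in each state. It was at 439, 462 and 403 CPM in mESC-2i, at 492, 497 and 373 CPM in mESC-ser and at 437, 428 and 463 CPM in EpiLC. The 3 groups overlapped, and mESC-ser replicate 3 was the lowest library of all. Log2 fold changes were 0.01 (SE 0.13), 0.01 (SE 0.09) and 0.05 (SE 0.10) in the 3 comparisons, with edgeR adjusted p of 0.965, 0.939 and 0.662, and their sign changed with the scaling, which gave -0.33 in EpiLC against mESC-2i for total counts.

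Tdgf1 shares 8.86% of its windows of 50 bases with its pseudogene Tdgf1-ps1, which had counts of its own. The pseudogene was given 567, 886 and 846 counts in mESC-2i, 1354, 1115 and 1397 in the mESC-ser libraries and 48, 47 and 48 in EpiLC. In CPM it stood at 69.8 ± 3.96 (SD, n = 3), 89.9 ± 8.36 and 5.86 ± 0.688, so the row for the pseudogene was far lower in EpiLC while that for Tdgf1 was not. Reads of either locus inside the shared windows cannot be told apart. The 236 shared windows were set against those of Tdgf1 only, and their share of the pseudogene's own windows was not measured.

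Acvr2b, a type II receptor for activin and Nodal (ENSMUSG00000061393, chromosome 9, 119402118 to 119434995, plus strand), was the least abundant of the 9 genes, with 34 to 65 counts per library in mESC-2i. It stood at 4.17, 5.42 and 4.21 CPM in mESC-2i, at 11.6, 13.0 and 13.2 CPM in mESC-ser and at 5.91, 4.12 and 5.28 CPM in EpiLC. All mESC-ser libraries lay above all others, and the other two groups overlapped. Acvr2b was 2.62-fold higher in mESC-ser than in mESC-2i (log2 fold change 1.39, SE 0.16, edgeR adjusted p = 2.80e-05) and 2.35-fold lower in EpiLC than in mESC-ser (-1.23, SE 0.16, edgeR adjusted p = 1.58e-06). Both calls held with the offsets, at 1.63 and -1.38. EpiLC and mESC-2i did not differ beyond the spread (0.11, SE 0.21, edgeR adjusted p = 0.620).

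Lefty1 (ENSMUSG00000038793, chromosome 1, 180935022 to 180938400, plus strand) encodes a secreted antagonist that binds Nodal and its co-receptor. It was at 51.6, 64.7 and 49.9 CPM in mESC-2i, at 40.2, 40.0 and 46.4 CPM in mESC-ser and at 211, 203 and 183 CPM in EpiLC. EpiLC lay far above both mESC groups, which did not overlap each other although the gap between them was small. Lefty1 was 3.55-fold higher in EpiLC than in mESC-2i (log2 fold change 1.83, SE 0.12, edgeR adjusted p = 1.93e-07) and 4.99-fold higher than in mESC-ser (2.32, SE 0.09, edgeR adjusted p = 7.20e-13). Genes of its length eighth had medians of 0.89 and 1.41 in these comparisons, and with the offsets Lefty1 was still called, at 1.33 and 1.57. The difference between mESC-ser and mESC-2i was -0.45 (SE 0.12, edgeR adjusted p = 0.00867), short of the fold threshold, which it passed without mESC-2i replicate 3 (-0.52) or mESC-ser replicate 3 (-0.51).

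Lefty2 (ENSMUSG00000066652, chromosome 1, 180893108 to 180899103, plus strand), the second antagonist of this kind, followed another order. It was at 137, 147 and 134 CPM in mESC-2i, at 44.4, 40.9 and 42.8 CPM in mESC-ser and at 128, 112 and 129 CPM in EpiLC. The serum libraries were low and did not approach the others, while mESC-2i and EpiLC stood side by side. Lefty2 was 3.39-fold lower in mESC-ser than in mESC-2i (log2 fold change -1.76, SE 0.10, edgeR adjusted p = 1.87e-07) and 3.04-fold higher in EpiLC than in mESC-ser (1.61, SE 0.09, edgeR adjusted p = 2.56e-11), and with the offsets it was at -1.41 and 1.26, called in both. EpiLC against mESC-2i gave -0.20 (SE 0.09, edgeR adjusted p = 0.0622), which total-count scaling moved to -0.54 and past the threshold.

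The share of each antagonist in their summed level differed between the states. Per exonic length (RPKM), Lefty1 made up 35.9%, 39.6% and 35.6% of the summed Lefty level in mESC-2i, 57.4%, 59.3% and 61.7% in the mESC-ser libraries and 71.1%, 73.0% and 67.8% in EpiLC. The 3 groups did not overlap, and Lefty2 was the larger share in naive cells and the smaller in EpiLC. In mESC-ser it was the smaller per length, but counts not divided by length put Lefty1 at 49.7% there. The step from mESC-ser to EpiLC was smaller after the length and GC correction, where the log2 fold changes of Lefty1 and Lefty2 were 1.57 and 1.26, against 2.32 and 1.61 without it. The summed level itself was 84.8 ± 7.17 RPKM (SD, n = 3) in naive cells, 40.4 ± 2.23 in mESC-ser and 160.4 ± 7.96 in EpiLC. Set against the Nodal level, the summed antagonists were 2.39, 2.59 and 2.34 times as high in mESC-2i, 1.31, 1.34 and 1.63 times in mESC-ser and 4.18, 4.13 and 3.99 times in EpiLC. EpiLC libraries thus held the most Lefty RNA for their Nodal RNA and mESC-ser the least, without overlap. Each of the 9 comparisons of these 3 quantities gave an exact two-sided permutation p of 0.1 (0.1 after Benjamini-Hochberg adjustment over the 9), the smallest that 3 against 3 libraries allow, so none can reach 0.05. With same-numbered libraries of mESC-ser and mESC-2i taken as pairs, the exact permutation p of that comparison was 0.25 for each quantity, the smallest that 3 pairs allow.

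**Figure D2:**
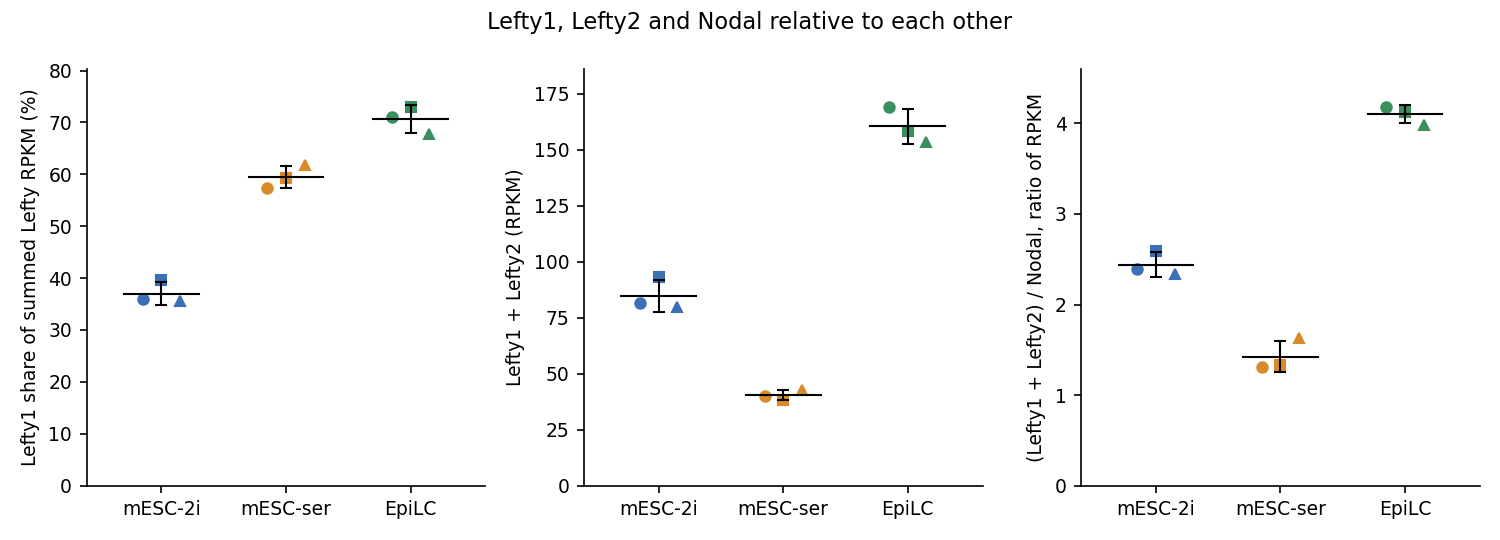
Lefty1 as a percentage of the summed Lefty1 and Lefty2 RPKM (left), the summed RPKM (middle) and the summed RPKM divided by the Nodal RPKM (right) in each library, on linear axes from 0. Circles, squares and triangles are replicates 1, 2 and 3, and lines and bars are the mean and SD (n = 3). No group overlaps another in any panel.

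Smad2, the receptor-activated transducer of the pathway (ENSMUSG00000024563, chromosome 18, 76241580 to 76310963, plus strand), was highest in serum. It was at 38.7, 37.9 and 31.3 CPM in mESC-2i, at 61.4, 62.1 and 56.4 CPM in mESC-ser and at 23.9, 26.9 and 24.0 CPM in EpiLC. The 3 groups did not overlap. It was called in each comparison, with log2 fold changes of 0.68 (SE 0.12, edgeR adjusted p = 0.000447), -0.54 (SE 0.12, edgeR adjusted p = 0.00186) and -1.18 (SE 0.09, edgeR adjusted p = 4.50e-09). Smad2 is a long transcript set (8781 exonic bases), genes of its length eighth moved the same way (medians 0.30, -0.53 and -0.80), and with the offsets none of the 3 was called (0.24, -0.04 and -0.19). The call in EpiLC against mESC-2i was also lost without mESC-2i replicate 1 (-0.46), mESC-2i replicate 2 (-0.46) or EpiLC replicate 1 (-0.50).

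Skil, whose product SnoN holds Smad complexes inactive on DNA (ENSMUSG00000027660, chromosome 3, 31095058 to 31122577, plus strand), changed most of the 9 genes between the mESC states. It was at 28.5, 23.0 and 33.2 CPM in mESC-2i, at 216, 223 and 209 CPM in mESC-ser and at 106, 87.8 and 117 CPM in EpiLC. The 3 groups were well apart, with naive cells lowest. Skil was 7.33-fold higher in mESC-ser than in mESC-2i (log2 fold change 2.87, SE 0.14, edgeR adjusted p = 9.36e-08) and 3.62-fold higher in EpiLC than in mESC-2i (1.86, SE 0.15, edgeR adjusted p = 1.20e-06). Both held with the offsets, at 2.28 and 2.38. EpiLC was lower than mESC-ser, at -0.97 on the log2 scale (SE 0.10, edgeR adjusted p = 6.43e-08), but the median of its length eighth was -1.21 and the sign turned with the offsets, to 0.20 (SE 0.07, edgeR adjusted p = 0.0189, short of the fold threshold).

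Smad7, the inhibitory Smad that blocks and degrades activated type I receptors (ENSMUSG00000025880, chromosome 18, 75367529 to 75395935, plus strand), was low in EpiLC. It stood at 111, 121 and 129 CPM in mESC-2i, at 88.9, 84.7 and 100.1 CPM in mESC-ser and at 31.7, 33.1 and 40.7 CPM in EpiLC. The 3 groups did not overlap. It was 3.46-fold lower in EpiLC than in mESC-2i (log2 fold change -1.79, SE 0.12, edgeR adjusted p = 2.27e-07) and 2.45-fold lower than in mESC-ser (-1.29, SE 0.10, edgeR adjusted p = 4.44e-09), and with the offsets these were -1.76 and -1.37. mESC-ser against mESC-2i was not called (-0.45, SE 0.10, edgeR adjusted p = 0.00309), and passed the fold threshold without mESC-ser replicate 3 (-0.51).

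**Figure D3:**
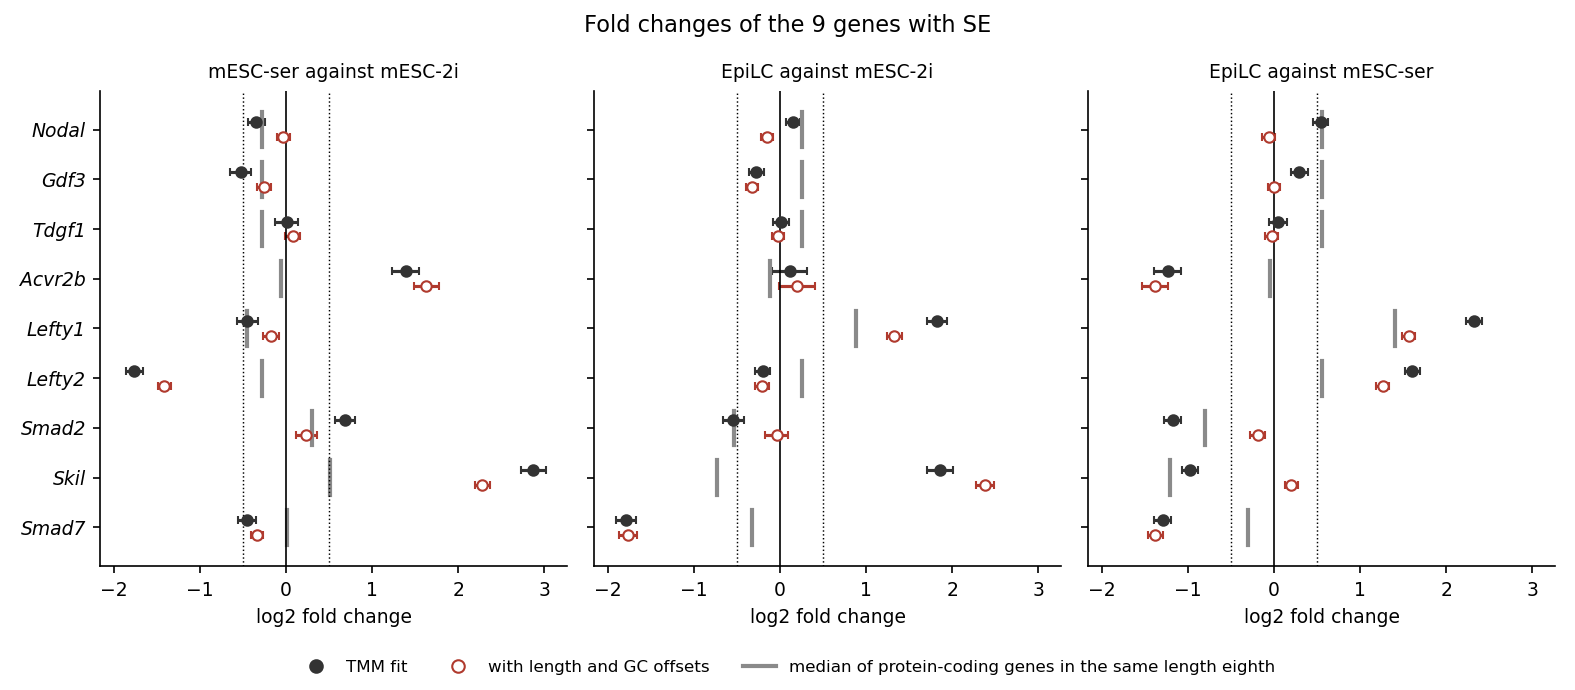
Log2 fold changes of the 9 genes in the 3 comparisons. Filled points are the TMM-scaled fit and open points the fit with length and GC offsets, both with bars of 1 SE, grey ticks are the median of protein-coding genes in the same eighth of exonic length, and dotted lines mark an absolute log2 fold change of 0.5. Skil lies at 2.87 in mESC-ser against mESC-2i, where its length median is 0.51, and in EpiLC against mESC-ser Lefty1 lies at 2.32 beside a median of 1.41 and Nodal at 0.54 beside 0.56.

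Ordered by level per exonic length, Tdgf1 came first and Acvr2b last in every state. In mESC-2i the means fell from Tdgf1 (166 ± 11.4 RPKM, SD, n = 3) to Lefty2 (53.3 ± 2.56), Gdf3 (42.3 ± 3.25), Nodal (34.7 ± 1.01), Lefty1 (31.5 ± 4.61), Smad7 (26.6 ± 2.04), Smad2 (4.09 ± 0.458), Skil (2.91 ± 0.526) and Acvr2b (1.17 ± 0.180). Lefty1 overlapped both Nodal and Smad7 there, while Nodal lay above Smad7 in every library. In mESC-ser the values from Gdf3 (30.6 ± 3.94 RPKM) through Nodal, Lefty1 and Skil to Smad7 (20.2 ± 1.76) overlapped from one to the next, and Lefty2 (16.4 ± 0.668) had dropped below them. In EpiLC no neighbours overlapped, with Lefty1 (113 ± 8.31 RPKM) second to Tdgf1 (169 ± 6.90) and Smad7 (7.78 ± 1.07) below Skil (10.7 ± 1.54).

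**Figure D4:**
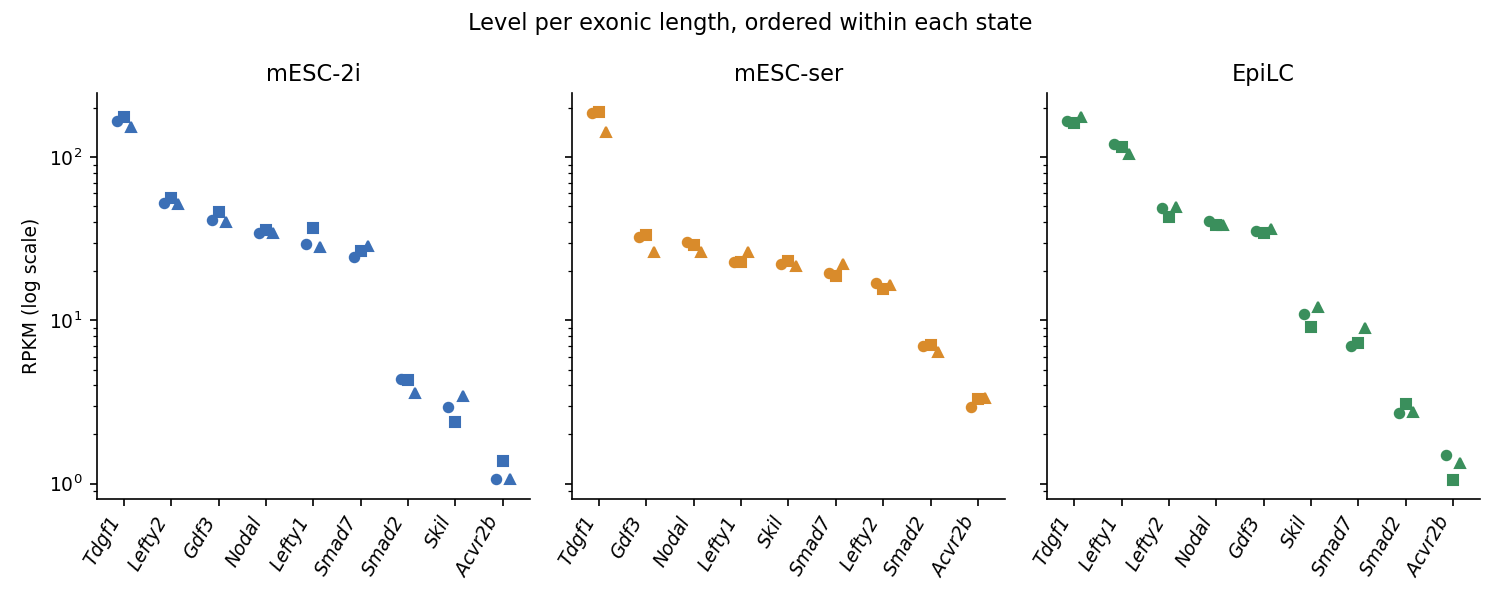
Level of the 9 genes per exonic length (RPKM, log scale) in each library, ordered by the group mean within each state. Circles, squares and triangles are replicates 1, 2 and 3. Lefty1 moves from rank 5 in mESC-2i to rank 4 in mESC-ser and rank 2 in EpiLC.

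The rest of the pathway was read from a list of 52 genes in 6 roles that includes the 9, of which 51 were in the table and Gdf1 was not analysed here. Serum against naive culture had 44 of them tested, 12 called higher and 13 lower, with a median log2 fold change of -0.08. For EpiLC 44 were tested against mESC-2i, with 9 higher, 20 lower and a median of -0.35, and 43 against mESC-ser, with 13 higher, 21 lower and a median of -0.37. All tested genes had medians of -0.04, -0.11 and -0.07, with 25.9%, 32.0% and 35.5% called higher and 30.3%, 37.8% and 37.8% called lower. Inhbb and Tgfb2 were the tested genes at the floor, both in EpiLC. Their bounds also lay below the list's medians, so using the bounds could not move these medians.

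Among 11 ligand and processing genes, Inhbb, which encodes the beta B subunit of activin, differed most between the mESC states. It had 10, 29 and 21 counts in mESC-2i, 507, 402 and 756 in the mESC-ser libraries and 1, 2 and 0 in EpiLC. It was 20.0-fold higher in mESC-ser than in mESC-2i (log2 fold change 4.32, SE 0.21, edgeR adjusted p = 7.87e-08), and in EpiLC, where it was at the floor of 3 counts per library, it was at least 4.78-fold lower than in mESC-2i and at least 102-fold lower than in mESC-ser. Tgfb2, a TGF-beta ligand, was at the floor in EpiLC too, at least 15.5-fold lower than in mESC-2i and at least 29.0-fold lower than in mESC-ser, and it was higher in mESC-ser than in mESC-2i (0.86, SE 0.15). Inhba, the beta A subunit, had no count in mESC-2i or EpiLC and 9, 2 and 14 in mESC-ser, too few to be tested. Pcsk6, a convertase that cleaves the Nodal precursor, was lower in mESC-ser (-1.62, SE 0.10) and lower still in EpiLC (-4.17, SE 0.11, edgeR adjusted p = 8.69e-10) than in mESC-2i. Tgfb1 was higher in EpiLC, at 0.54 (SE 0.13) against mESC-2i and 0.86 (SE 0.12) against mESC-ser. With total-count scaling these were 0.20, short of the fold threshold, and 0.52.

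Of 9 receptor and co-receptor genes, 7 were tested, and 5 were called lower and none higher in EpiLC against mESC-2i, where 37.8% of all tested genes were called lower and 32.0% higher. Tgfbr2, the type II receptor of TGF-beta, had 179, 284 and 328 counts in mESC-2i, 48, 51 and 70 in the mESC-ser libraries and 5, 3 and 7 in EpiLC. Its log2 fold change was -2.67 (SE 0.15, edgeR adjusted p = 2.11e-07) in mESC-ser and -5.27 (SE 0.24, edgeR adjusted p = 1.98e-08) in EpiLC, both against mESC-2i. Acvr1b, the type I receptor of activin and Nodal, was lower by a log2 fold change of -1.33 (SE 0.14) in mESC-ser and -1.66 (SE 0.12) in EpiLC than in mESC-2i, and the TGF-beta co-receptor Tgfbr3 by -2.13 (SE 0.18) and -2.38 (SE 0.21). Between EpiLC and mESC-ser, Tgfbr2, Acvr2a (-1.54, SE 0.17), Tgfbr1 (-1.44, SE 0.11) and Acvr2b were called lower. With the offsets Tgfbr2 moved from -2.57 to -1.84, Acvr2a to -0.84 and Tgfbr1 to -0.63, each still called. Acvr1c, a further type I receptor, had at most 2 counts in any library.

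The 6 extracellular inhibitors did not move as a block. Against mESC-ser 4 of 5 tested were called higher in EpiLC, as were 35.5% of all tested genes. The 4 were Lefty1, Lefty2, Fst (1.69, SE 0.12, edgeR adjusted p = 1.65e-09), which encodes the activin-binding follistatin, and its relative Fstl3 (1.19, SE 0.25). Fst was lowest in serum, with 112, 85 and 121 counts against 217, 341 and 334 in mESC-2i (-1.94, SE 0.12, edgeR adjusted p = 5.34e-07), the same order as for Lefty2. Tmeff1, a membrane protein that binds the Nodal co-receptor, was lower in EpiLC than in mESC-2i (-1.58, SE 0.11) and mESC-ser (-2.06, SE 0.09). Fstl3 had 1, 5 and 6 counts in mESC-2i and 19, 33 and 34 in EpiLC, which put EpiLC higher by 3.21 on the log2 scale (SE 0.39, edgeR adjusted p = 2.23e-05). In mESC-ser against mESC-2i Fstl3 (2.08, SE 0.39) and Tmeff1 (0.52, SE 0.10) were called higher. Cer1 had at most 1 count in any library.

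Among the 11 Smads and nuclear partners, Smad3, the other transducer activated by these receptors, was lowest in EpiLC and highest in naive cells. It was lower in mESC-ser than in mESC-2i (-1.49, SE 0.12, edgeR adjusted p = 2.33e-06) and in EpiLC than in mESC-2i (-2.17, SE 0.15, edgeR adjusted p = 4.44e-07), both also with the offsets (-1.39 and -1.87). In EpiLC against mESC-ser Smad3 was called lower (-0.64, SE 0.14), but with the offsets it was at -0.43 and not called. The co-repressor Ski, a relative of Skil, was higher in mESC-ser than in mESC-2i (0.89, SE 0.13) and lower in EpiLC than in mESC-ser (-0.84, SE 0.09), with no call in EpiLC against mESC-2i (0.01, SE 0.11). Trim33 (a Smad-binding ubiquitin ligase) was higher in mESC-ser than in mESC-2i (1.30, SE 0.11), and its call as lower in EpiLC than in mESC-ser (-1.07, SE 0.08) turned to 0.04 with the offsets. Drap1, a repressor that binds Foxh1, was higher in EpiLC than in naive cells (1.12, SE 0.12, and 0.55 with the offsets) and mESC-ser (1.87, SE 0.08, and 1.08 with the offsets), and lower in mESC-ser than in mESC-2i (-0.70, SE 0.13, and -0.46 and not called with the offsets). The co-repressor Tgif2 was higher in EpiLC than in both (1.08, SE 0.10, and 0.93, SE 0.08).

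Of the 6 intracellular negative regulators, the ubiquitin ligases Smurf1 and Smurf2 were called lower in EpiLC than in mESC-2i (-0.72, SE 0.12, and -0.61, SE 0.10) along with Smad7, though with the offsets only Smad7 was still called. Against mESC-ser they were called lower too, at -0.95 (SE 0.09) and -1.21 (SE 0.09), and with the offsets at -0.68 and -0.63. Bambi, a decoy receptor, was higher in EpiLC than in mESC-2i (0.71, SE 0.16) and mESC-ser (0.90, SE 0.14), and Pmepa1, which keeps receptor-activated Smads from their receptors, was called higher in EpiLC than in mESC-ser (0.52, SE 0.09). Total-count scaling put Bambi at 0.37 and 0.56 and Pmepa1 at 0.18, and the values 0.37 and 0.18 fall short of the fold threshold. In mESC-ser against mESC-2i only Smurf2 was called (0.65, SE 0.10), and with the offsets it was at 0.46.

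The 9 responsive genes split. Gsc, a mesendoderm gene, had 76, 141 and 89 counts in mESC-2i, 4, 2 and 5 in the mESC-ser libraries and 2, 6 and 4 in EpiLC, so naive cells alone held it above a few counts. Foxa2, an endoderm gene, was called lower in mESC-ser than in mESC-2i (-1.28, SE 0.29). Ccn2 and Tgfbi, known as TGF-beta targets in many cells, were highest in serum and in naive cells, respectively: Ccn2 was 6.22-fold higher in mESC-ser than in mESC-2i (2.64, SE 0.10) and lower in EpiLC than in either, and Tgfbi fell from mESC-2i to mESC-ser (-0.97, SE 0.16) and further to EpiLC (-3.47, SE 0.25). Mixl1 and Foxa2 were called higher in EpiLC than in mESC-ser (2.23, SE 0.43, and 0.93, SE 0.35) on at most 22 counts per library, and the Foxa2 groups overlapped, with no call for Foxa2 under the offsets (0.38).

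**Figure D5:**
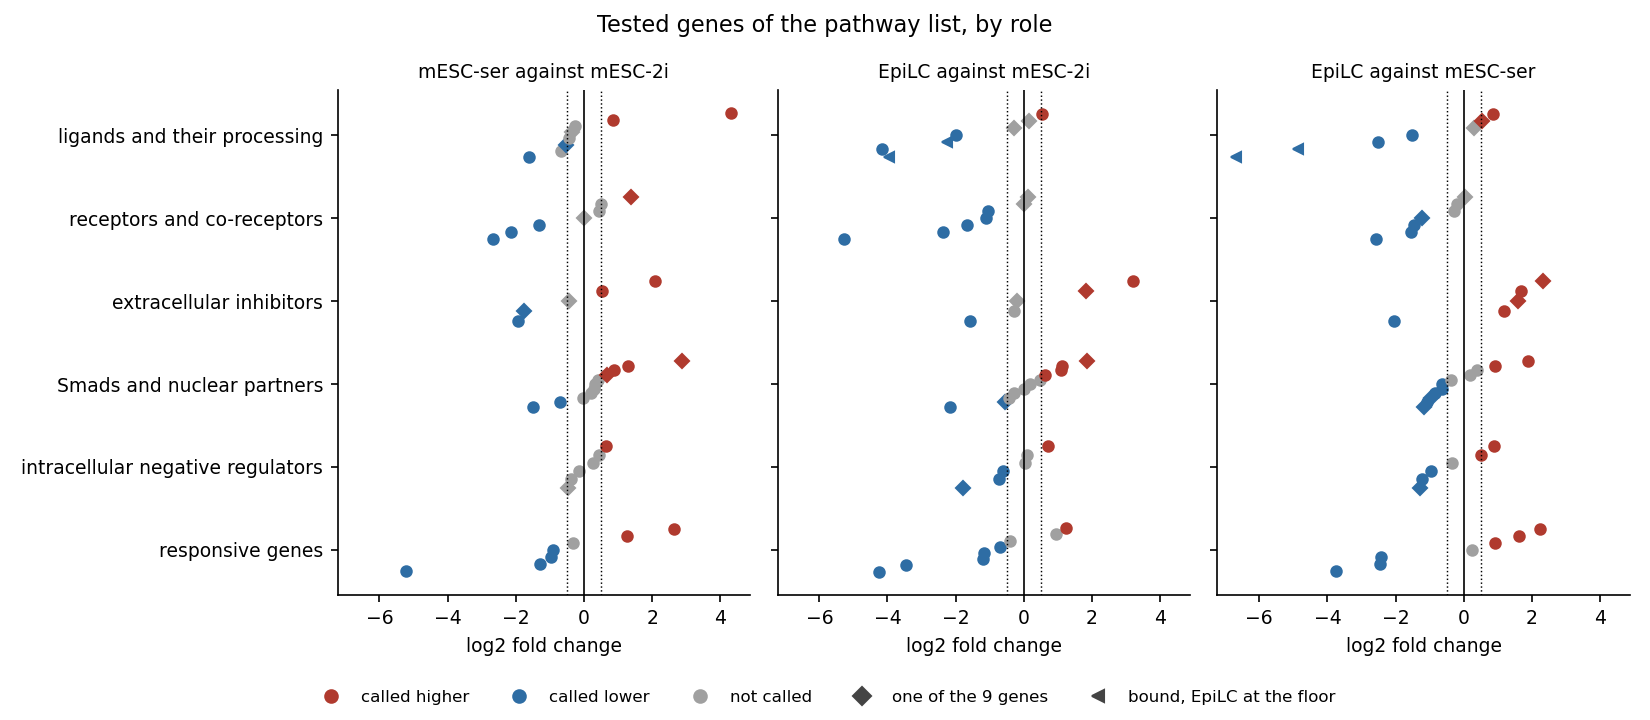
Log2 fold changes of the tested genes of the pathway list by role, in the 3 comparisons. Red points were called higher, blue lower and grey not called, diamonds are the 9 genes, left-pointing triangles are the lower bounds for Inhbb and Tgfb2 at the floor in EpiLC, and dotted lines mark an absolute log2 fold change of 0.5. No receptor or co-receptor is red in either EpiLC comparison.

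Over the 9 libraries, the protein-coding genes whose log2 CPM followed that of Nodal most closely were Ier3ip1 (Pearson r = 0.994), Coa4 (0.990), Gmfg (0.987), Cdc16 (0.986) and Ebpl (0.986), out of 10305 compared. For Lefty1 they were Trir (0.998), Snf8, Tmem258, Limd2 and Cyth2 (all 0.996). These values describe 9 libraries that fall into 3 states, so any gene with a similar order and spacing of the states scores high. None of the 5 genes nearest to either is on the pathway list.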

How the data were processed

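Poly-A RNA of the 9 libraries was sequenced as single-end reads of 50 bases with a kit that keeps no strand. According to the labels and methods, the authors trimmed reads with TrimGalore 0.6.6, aligned them to mm10 with HISAT2 2.2.1 and made the deposited counts per Ensembl gene with featureCounts of subread 2.0.1. The annotation release and the handling of multi-mapped reads were not stated. GENCODE M21 (GRCm38, the assembly of mm10) supplied symbols, positions and lengths for 36429 of the 38293 identifiers.

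Here, edgeR 4.0.16 (R 4.3.3, limma 3.58.1) was run on the 6 libraries of each pair with filterByExpr, TMM and no block. RPKM used the union of exons. Length and GC offsets were natural splines with 5 degrees of freedom per library. Folds against a group with at most 3 counts in every library are lower bounds against 3 counts per library, and cover counting error only. The Lefty quantities were compared by exact permutation.

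The 9 genes, the lists and the tests were chosen with earlier results of these data known. From each role of the list, the genes called by the largest fold change, up to 3 per direction and comparison, and genes at 3 counts or fewer throughout were named, with Inhba and Tdgf1-ps1 added after their values were seen. Some items that this rule names are not reported here. Same-numbered libraries of mESC-ser and mESC-2i deviated together (correlations 0.155 to 0.375), so their numbers were taken as pairs in the blocked alternative, while the main tests treated all libraries as unpaired. Those of EpiLC with mESC-2i (0.0179 to 0.111) and with mESC-ser (0.0151 to 0.0317) were not. Chi-square per degree of freedom between replicates was 1.66 to 30.5, above sampling noise, and all 9 libraries were kept. The edgeR fit, with and without the offsets, was tested on counts simulated from mESC-2i and mESC-ser, with a length bias but no GC bias. The EpiLC comparisons and the other steps were not tested in this way.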

Additional observations from a re-analysis of the deposited data

How the results depend on the processing

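Of the log2 fold changes of the 9 genes over the alternatives, 419 values stayed on their side of the threshold with the same sign. With the sign kept, 27 lost the call and 10 gained it. The other 30 changed sign, and some of these lost their call as well. Lefty1 and Smad7 in both EpiLC comparisons, Lefty2 and Acvr2b in both comparisons with mESC-ser, and Skil in both with mESC-2i kept their sign and their call under each alternative run.

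Lower calls among the 9 genes depended most on the setting. In mESC-ser against mESC-2i there was 1 without a filter, with 10 counts in every library and at an absolute log2 fold change over 1. The offsets, alone or with the replicate block, also left 1. At the adjusted p alone there were 5, and 10430 of all 15728 tested genes were called in either direction, against 8843 with the fold threshold. Leaving out a replicate gave 1 to 3. In EpiLC against mESC-2i there were 1 with RLE scaling, DESeq2, either offset fit and the fold threshold of 1, and 4 with total counts, with 1 to 2 when a replicate was left out. In EpiLC against mESC-ser 2 were left with either offset fit. At an absolute log2 fold change over 1, the pathway list held 7 higher and 9 lower calls in mESC-ser against mESC-2i. Of all genes, 4935 were called there in either direction. The list held 7 higher calls in EpiLC against mESC-ser, where 7957 of all genes were called in either direction. These totals are not split by direction, so no matching share of higher calls can be given.

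Signs turned mainly for Tdgf1. With mESC-ser set against mESC-2i it was -0.0308 with upper-quartile scaling, -0.0387 with total counts, -0.00384 with the replicate block and between -0.0422 and 0.143 when a replicate was left out. With EpiLC set against mESC-2i it was -0.0102 with upper-quartile scaling, -0.33 with total counts, -0.0131 without a filter, -0.0505 with 10 counts in every library, -0.0214 with the offsets, -0.0217 with offsets and block, and -0.0397 to 0.0906 when a replicate was left out. With EpiLC set against mESC-ser it was -0.29 with total counts, -0.0364 without a filter, -0.0243 with 10 counts in every library, -0.0199 with all 9 libraries in one fit, -0.023 with the offsets, -0.019 with offsets and block, and -0.0757 to 0.113 when a replicate was left out. Nodal was -0.19 with total counts, -0.15 with the offsets and -0.15 with offsets and block in EpiLC against mESC-2i, and with these offset fits it was -0.0598 and -0.0579 in EpiLC against mESC-ser, where total counts gave 0.20 and ended its call. With total counts Acvr2b in EpiLC against mESC-2i was -0.22, and Gdf3 in EpiLC against mESC-ser was -0.0414. Skil in EpiLC against mESC-ser was 0.20 with either offset fit. The cause was not tested.

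The replicate block changed no call of the 9 genes, and called 8953, 10759 and 11207 genes in the 3 comparisons, against 8843, 10732 and 11246 without it. Counts not divided by length put the Lefty1 share at 28.4%, 49.7% and 61.9%, in the same order of states but with Lefty2 no longer the smaller share in mESC-ser, an alternative added after the data were seen. Acvr2b and the genes under 30 counts are limited by depth, and 3 libraries per state do not allow an exact p under 0.1.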
